A study of Mus musculus with 14 samples.

Results

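The families of secreted and membrane proteins that steer growing axons and migrating neurons were followed through 3 stages of medulloblastoma, a tumor of the cerebellum. The members were all genes whose array annotation gave 1 symbol that names Dcc, a semaphorin of class 3 to 7, a plexin, a neuropilin, a Slit, a Robo, an Unc5, a netrin, an Eph receptor or an ephrin. This rule found 45 genes with 58 probe sets, among 8251 genes with a single symbol and 12422 probe sets in all. A probe set is the group of array probes that reports 1 transcript, and each gene was read from its probe set with the highest mean. All mice were patched+/-, heterozygous for the hedgehog receptor patched, and were kept by breeding with 129X1/SvJ mice. The groups were granule cell precursors (GCP, n = 4) of mice aged 7 days, preneoplastic cells (pretumor, n = 5) of mice aged 6 weeks, and tumor cells (tumor, n = 5) of mice aged 10 to 25 weeks with outward signs of the tumor. There was no group of wild-type mice, and age and stage cannot be told apart. The labels also describe a Math1-GFP line and do not say whether any arrayed sample carried it, nor whether animals were pooled. Each sample was a suspension from the border of the 35% and 65% Percoll steps, not sorted further, so fewer cells of a type and less RNA per cell cannot be told apart.

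Netrins attract axons through the receptor Dcc and repel them when an Unc5 receptor takes part. Slits repel through Robo receptors, semaphorins signal mostly through plexins, with neuropilins as co-receptors for the secreted class, and ephrins are membrane-bound ligands of the Eph receptor tyrosine kinases. In the cerebellum these systems guide granule cell precursors as they spread over the surface and then move inward, and loss of the netrin receptor Unc5c in mice lets granule cells stray out of the cerebellum.

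Array medians ran from 4.11 to 4.39 on the intensity scale, between 29.2% and 29.8% of probe sets per array reached an intensity of 16, and arrays correlated with their own group at a mean r of 0.985 to 0.996. Values under 16, which hold 70.5% of all values, are called the low band. The GCP arrays formed a pair of GCP 1 and 2 (r = 0.9977) and a pair of GCP 3 and 4 (r = 0.9975), with r from 0.9939 to 0.9956 between the pairs. The precursor factor Zic1 was read at 5267 to 8192 on every array, whereas the probe set of Atoh1, the defining factor of granule cell precursors, stayed between 3.09 and 4.73 on all of them.

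Most guidance genes gave no signal above the low band at any stage. Of the 45 members, 36 were below 16 on all 14 arrays, and 9, or 20% of the members, reached 16 on at least 1 array, against 40.7% of all single-symbol genes. The mean over all arrays was at or above 16 in 6 members (13.3%, against 36.3% of all genes). Low-band genes included 15 of 16 semaphorins, 4 of 5 plexins, all 7 EphA and both EphB receptors and all 5 ephrin-A ligands measured here. Their values ran from 2.45, the floor applied to the data, to 14.6. RefSeq holds 73 protein-coding genes that fit the rule, and the other 28, among them Slit1, Slit2 and Slit3, were not analysed here.

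**Figure D1:**
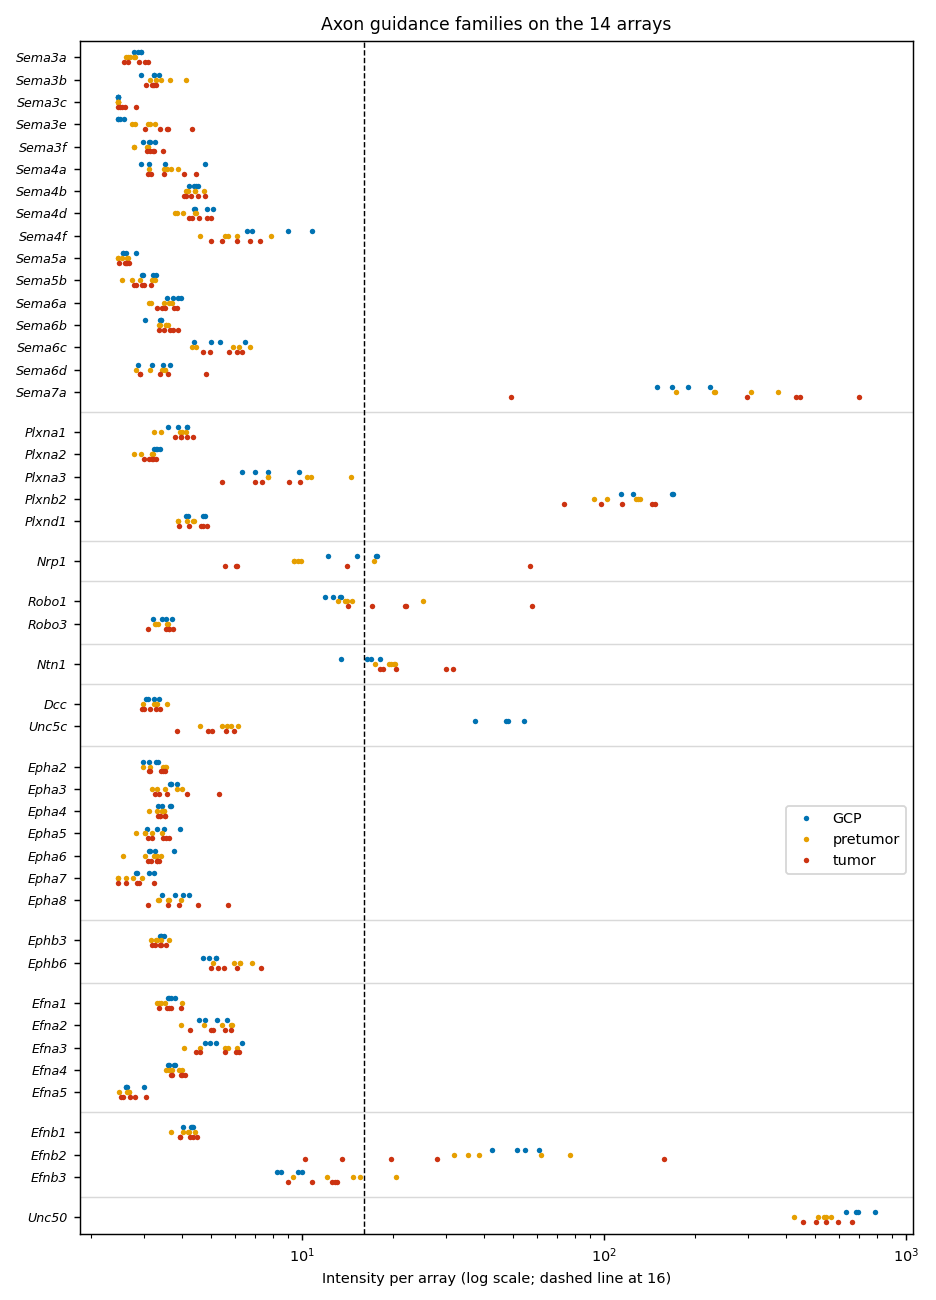
Intensity of each of the 45 members on each of the 14 arrays (horizontal log axis, 1 point per array, coloured by stage, values floored at 2.45), with genes grouped by family and a dashed line at 16. Only 9 genes have any point right of the line, and Unc5c is the member whose GCP points alone lie right of it.

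Few members differed between stages, and their share was close to that of the whole array. In pretumor against GCP the test called 2 of 45 members (4.44%), Unc5c and Unc50, against 4.36% of all probe sets. In tumor against GCP it called 2 (4.44%), Unc5c and Sema3e, against 4.6%. Both comparisons use the same 4 GCP arrays. In tumor against pretumor it called 0 members, against 0.998%, and 4 (8.89%, against 11.3% of all probe sets) had an unadjusted p under 0.05, Sema3c, Sema3e, Sema3f and Sema4d, all in the low band. The test was limma's moderated test with Benjamini-Hochberg adjustment over all 12422 probe sets, with a call at an adjusted p under 0.05. By plain separation of the arrays, the groups did not overlap in 4 members in pretumor against GCP (8.89%, against 10.1% of all probe sets), in 5 in tumor against GCP (11.1%, against 8%) and in 1 in tumor against pretumor (2.22%, against 2.62%). Among all single-symbol genes the shares called were 5.24%, 5.62% and 1.09%, and the shares without overlap 12.1%, 9.53% and 2.75%. The median log2 difference over the members was -0.05, 0.00 and 0.05 in the 3 comparisons, beside -0.01, 0.00 and 0.01 over all probe sets. Without tumor 3 the members called in tumor against GCP became 4, with Efnb2 and Sema7a added, while the called probe sets went from 571 to 709.

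**Figure D2:**
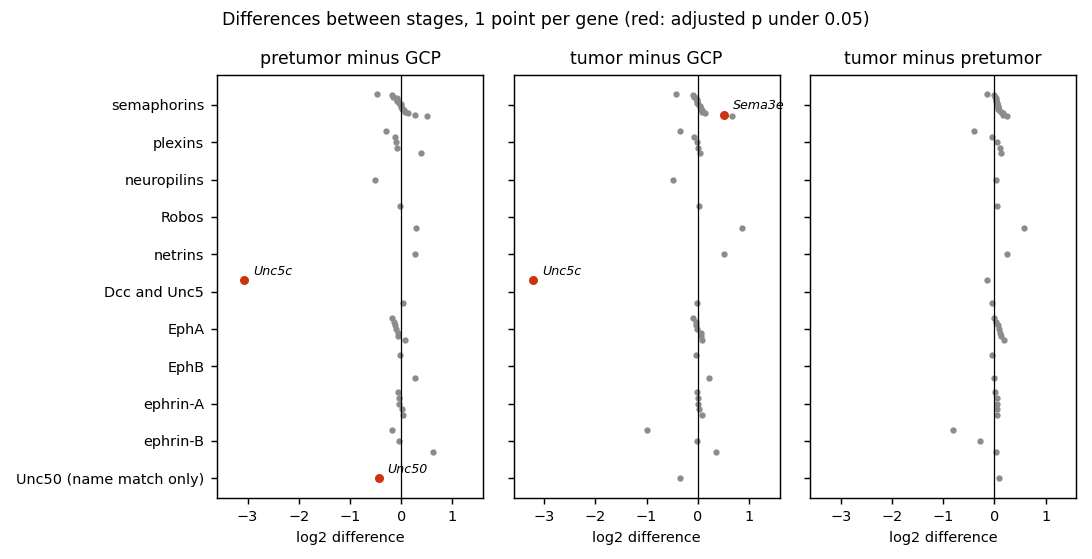
Log2 difference between stages for each member (1 point per gene, rows by family), with a panel for each comparison and members past an adjusted p of 0.05 in red and named. Nearly all points lie close to 0, Unc5c lies at -3.08 and -3.21 against GCP, and no member is called in tumor against pretumor.

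The netrin receptor Unc5c was read above the low band in the GCP samples and fell into it at both later stages. Its intensity was 47.3, 48.0, 37.2 and 54.4 in GCP 1 to 4. In pretumor 1 to 5 it was 5.81, 4.60, 5.43, 5.65 and 6.13, and in tumor 1 to 5 it was 5.93, 3.85, 4.88, 5.61 and 5.01. Every GCP array thus lay above every later array, and pretumor and tumor overlapped. On the log2 scale the level was 5.53 ± 0.23 (SD, n = 4) in GCP, 2.46 ± 0.16 (n = 5) in pretumor and 2.32 ± 0.24 (n = 5) in tumor. Taking the low band at its limit of 16, Unc5c fell at least 2.90-fold from GCP to either later stage. The fitted differences were -3.08 (SE 0.14, adjusted p = 1.82e-07) in pretumor against GCP and -3.21 (SE 0.14, adjusted p = 1.1e-07) in tumor against GCP. Both calls held in each of the 23 alternatives that could test the gene. Tumor and pretumor differed by -0.14 (SE 0.13, adjusted p = 0.758).

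Marker lists for the cells of the suspension also differed between these stages. Here lower and higher count markers called by the test against GCP. It called 5.24% of all single-symbol genes in pretumor and 5.62% in tumor. The summed intensity of 12 measured Purkinje cell and interneuron markers ran from 173 to 267 in GCP, 109 to 195 in pretumor and 59.5 to 109 in tumor. Of them 3 were lower in pretumor against GCP and 4 in tumor against GCP, and 6 of the 12 were in the low band on every array. Called or not, 7 of the 12 had a positive log2 difference in pretumor against GCP, at a median of 0.03. Gad1 read 50.4 to 138 in GCP and 6.35 to 23.9 in pretumor, whereas Calb1 read 4.78 to 19.1 and 7.71 to 38.2. The summed intensity of 13 astrocyte and Bergmann glia markers ran from 11046 to 15142, 2021 to 6304 and 1134 to 3006, with 2 lower and 1 higher in pretumor and 8 lower in tumor. Such sums of linear intensity are weighted to their strongest members, and Fabp7 alone read 8354 to 11749 in GCP. The 12 granule cell precursor markers summed to 18514 to 22552 in GCP, 11464 to 17369 in pretumor and 12541 to 19285 in tumor, with 2 members, Pax6 and Neurod1, lower in both. The 13 postmitotic granule neuron markers summed to 12307 to 13663, 10901 to 13635 and 8136 to 13472, with 3 lower at each later stage. Nfib alone read 5424 to 8584 over all arrays. The 3 called were Cbln1, Syt1 and Kcnd2. Kcnd2 read 39.4 to 143 in GCP, 2.45 to 6.03 in pretumor and the floor of 2.45 on every tumor array. Called or not, 6 of the 13 had a positive log2 difference in pretumor against GCP and 4 in tumor against GCP. The 19 meninges and fibroblast markers summed to 979 to 1742 in GCP, 707 to 915 in pretumor and 177 to 897 in tumor, with 8 lower and 1 higher in pretumor and 7 lower in tumor. Of these, Postn stood at 23.6 to 46.6 in GCP and at 3.42 to 4.31 in pretumor. Ptgds, the member called higher, stood at 19.2 to 76.5 in GCP and at 382 to 590 in pretumor. The 18 endothelium and pericyte markers, 14 of them in the low band throughout, summed to 162 to 199.9, 107 to 143 and 76.9 to 109, with 6 lower and 1 higher in pretumor and 8 lower in tumor. The 12 oligodendrocyte markers summed to 281 to 421 in GCP, 791 to 1591 in pretumor and 164 to 311 in tumor, with 5 higher in pretumor and 1 lower in tumor. The 17 microglia and macrophage markers summed to 301 to 663, 1020 to 1638 and 765 to 2232, with 2 higher at each later stage. The 5 choroid plexus and ependyma markers summed to 626 to 3213, 5149 to 14525 and 21.6 to 1157, with 1 higher in pretumor. The 3 blood markers summed to 1919 to 4371, 743 to 3414 and 12.9 to 387, with 2 lower in tumor. The part of any of these cells in the Unc5c difference was not tested.

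The sequences upstream of the start sites of Unc5c and Sema3e, the guidance genes called by the test, are shown to set their promoters side by side. Each is the 250 bases before the RefSeq start site on build GRCm38.p6, 5′ to 3′ on the + strand, from chr3:141465314-141465563 for Unc5c and chr5:14025026-14025275 for Sema3e. Capitals mark E-boxes (CANNTG, which reads the same on both strands), the motif bound by the basic helix-loop-helix factors of the granule lineage.
Unc5c: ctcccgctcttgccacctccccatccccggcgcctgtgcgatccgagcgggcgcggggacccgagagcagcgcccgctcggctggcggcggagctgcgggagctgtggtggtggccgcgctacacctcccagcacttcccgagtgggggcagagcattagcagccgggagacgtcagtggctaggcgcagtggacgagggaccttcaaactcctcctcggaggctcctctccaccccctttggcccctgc
Sema3e: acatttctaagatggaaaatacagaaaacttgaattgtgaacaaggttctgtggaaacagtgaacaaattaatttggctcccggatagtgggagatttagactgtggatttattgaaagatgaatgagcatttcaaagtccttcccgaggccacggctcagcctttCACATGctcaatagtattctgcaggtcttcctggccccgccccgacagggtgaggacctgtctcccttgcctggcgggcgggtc
The Unc5c window held 0 E-boxes and the Sema3e window held 1, while 66.2% of 32851 RefSeq promoter windows of this length held at least 1. The Gli motif GACCACCCA, searched on both strands, was in neither window and in 0.225% of all windows. The GC content was 71.2% for Unc5c and 48% for Sema3e. The promoter table matched 38 of the 45 members by symbol.

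Netrin-1 (Ntn1), the secreted ligand of Dcc and the Unc5 receptors, stayed near the edge of the low band in GCP and was somewhat higher in tumor samples. It was read at 18.1, 16.9, 13.4 and 16.4 in GCP 1 to 4. The pretumor arrays gave 19.7, 19.5, 20.1, 20.3 and 17.5, and the tumor arrays 29.9, 18.5, 31.6, 18.1 and 20.5. All tumor arrays lay above all GCP arrays, with tumor 1 and tumor 3 highest. The log2 level was 4.01 ± 0.18, 4.28 ± 0.09 and 4.53 ± 0.39, and the difference of tumor from GCP, 0.52 (SE 0.17), did not pass (unadjusted p = 0.00945, adjusted p = 0.122). Its second probe set read 2.77 to 3.36 on all arrays. Dcc itself lay between 2.95 and 3.56 on all arrays, so no change of that receptor could be measured.

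The Slit receptor Robo1 was in the low band on all GCP arrays and above it on 4 of 5 tumor arrays. It gave 11.9, 13.4, 13.4 and 12.6 in GCP 1 to 4. In pretumor it gave 14.6, 13.9, 13.2, 14.03 and 25.1, and in tumor 57.7, 14.2, 21.9, 17.0 and 22.1. Tumor and GCP did not overlap, tumor 1 stood highest, and pretumor 5 stood apart from the other pretumor arrays. The mean in tumor was at least 1.45-fold that in GCP, at 4.54 ± 0.78 against 3.68 ± 0.08 on the log2 scale, and the difference of 0.86 (SE 0.34) did not pass (adjusted p = 0.23). In pretumor the level was 3.97 ± 0.39 (adjusted p = 0.816 against GCP and 0.555 for tumor against pretumor). Robo3, which lets crossing axons ignore Slits before the midline, stayed between 3.09 and 3.73.

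Among the semaphorins, Sema7a was the single member above the low band. Sema7a is held in the membrane by a lipid anchor and signals through integrins and plexin C1. It was read at 167, 225, 150 and 189 in GCP 1 to 4. In pretumor it was 377, 306, 173, 233 and 231, and in tumor 697, 446, 49.1, 432 and 298. Of the tumor arrays, 4 lay above every GCP array and tumor 3 lay below every other array of the series. The log2 level was 7.50 ± 0.25 in GCP, 7.99 ± 0.43 in pretumor and 8.17 ± 1.49 in tumor, and no difference passed (0.50 with SE 0.61 and adjusted p = 0.828, 0.67 with SE 0.61 and adjusted p = 0.73, and 0.17 with SE 0.58 and adjusted p = 0.97). Without tumor 3 the difference of tumor from GCP was 1.31 and passed (adjusted p = 0.0198), within a range of 0.0198 to 1 over its 24 alternatives. The second probe set of Sema7a stayed between 4.07 and 6.19.

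Sema3e, a secreted semaphorin that binds plexin D1 without a neuropilin, was called in tumor against GCP inside the low band. It gave 2.45, 2.57, 2.50 and 2.45 in GCP 1 to 4, with GCP 1 and GCP 4 at the floor. In pretumor it gave 3.26, 3.08, 2.73, 2.80 and 3.14, and in tumor 4.31, 3.02, 3.38, 3.57 and 3.58. The log2 means were 1.32 ± 0.03, 1.58 ± 0.11 and 1.83 ± 0.19, all GCP arrays lay below all others, and the difference of tumor from GCP was 0.51 (SE 0.09, adjusted p = 0.00496). No fold is given, since all 14 values lie in the low band. With a floor at 16 the difference was 0, and with the GCP array pairs averaged the call ended (adjusted p = 0.0691; over 23 alternatives it ran from 0.000446 to 1). The difference of pretumor from GCP was 0.26 (SE 0.09, adjusted p = 0.123), and it passed in 4 of 23 alternatives. These were without tumor 1 (adjusted p = 0.0377), without pretumor 3 and tumor 2 (0.0475), with array weights (0.00917) and with the compared groups alone (0.0342). Tumor differed from pretumor by 0.24 (SE 0.08, adjusted p = 0.232). Plxnd1, its receptor, lay in the low band on every array. The other 14 semaphorins, among them Sema3a, Sema3f, Sema4d, Sema5a and Sema6a, stayed between 2.45 and 10.8, and 0 of them were called.

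The semaphorin receptor Plxnb2, which granule cell precursors need for ordered division and migration, was clearly present at all 3 stages. It was read at 169, 168, 125 and 113 in GCP 1 to 4, so that GCP 1 and GCP 2 stood above GCP 3 and GCP 4. In pretumor it was 131, 128, 102, 130 and 92.2, and in tumor 115, 97.9, 73.5, 147 and 144. The groups overlapped, at 7.14 ± 0.29, 6.85 ± 0.23 and 6.80 ± 0.42 on the log2 scale. The differences were -0.29 (SE 0.21, adjusted p = 0.617), -0.34 (SE 0.21, adjusted p = 0.533) and -0.05 (SE 0.20, adjusted p = 0.985). The second probe set was at 15.2 and 15.3 in GCP 1 and GCP 2 and at 4.49 and 4.75 in GCP 3 and GCP 4. Plxna1, Plxna2, Plxna3 and Plxnd1 stayed in the low band.

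The co-receptor Nrp1, which binds secreted semaphorins and vascular growth factor, varied more between arrays of 1 stage than between stages. Its values were 12.2, 17.8, 15.2 and 17.5 in GCP 1 to 4. In pretumor they were 9.40, 9.68, 17.3, 9.91 and 9.40, and in tumor 5.54, 14.1, 56.8, 6.04 and 6.08. Tumor 3 was the highest of all arrays, and pretumor 3 the highest of its group. The log2 level was 3.95 ± 0.25, 3.43 ± 0.38 and 3.46 ± 1.43. No difference passed (-0.52 with SE 0.58 and adjusted p = 0.8, -0.49 with SE 0.58 and adjusted p = 0.83, and 0.03 with SE 0.55 and adjusted p = 1), and since all 3 group means lay below 16 no fold is given. Without tumor 3 the difference of tumor from GCP was -1.08 (adjusted p = 0.0654), and without tumor 1 it was -0.24. The second probe set of Nrp1 also read highest in tumor 3, at 37.4, and at 3.95 to 12.7 on the other arrays.

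**Figure D3:**
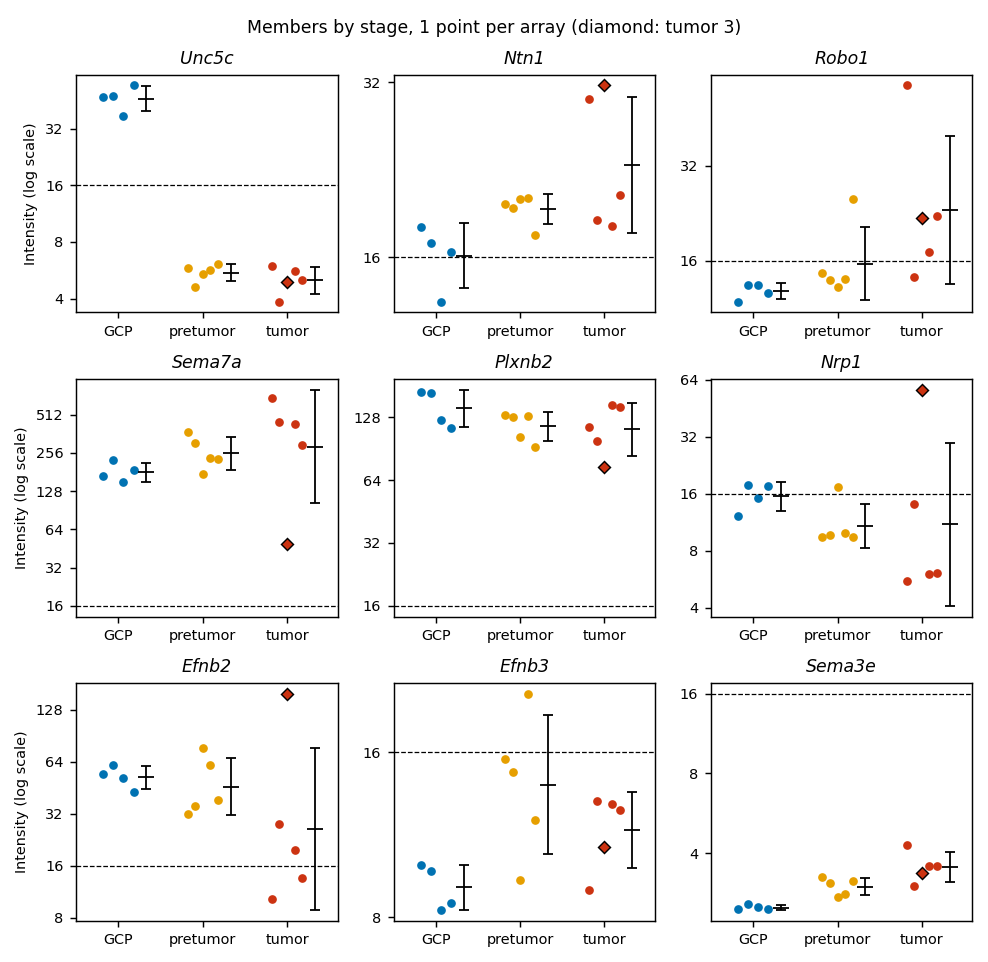
Intensity (vertical log axis) of 9 members on each array by stage, with the mean ± SD of log2 intensity beside each group, a dashed line at 16 and tumor 3 drawn as a diamond. Unc5c separates GCP from both later stages, while tumor 3 is the lowest tumor array for Sema7a and the highest for Efnb2 and Nrp1.

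Of the ephrins, the transmembrane ligand Efnb2, which marks arteries as well as neural cells, was the member with a group mean above the low band at all stages. It was read at 54.6, 60.9, 51.5 and 42.6 in GCP 1 to 4. In pretumor it was 31.9, 35.4, 76.9, 61.6 and 38.6, and in tumor 10.2, 28.0, 158, 19.6 and 13.6. The other 4 tumor arrays lay below every GCP array and every pretumor array, and tumor 3 lay above all of them. The log2 level was 5.70 ± 0.22, 5.52 ± 0.55 and 4.71 ± 1.55, and the difference of tumor from GCP, -0.99 (SE 0.65), did not pass (adjusted p = 0.561). Without tumor 3 it was -1.64 and passed (adjusted p = 0.0183, within a range of 0.0183 to 1 over 24 alternatives). Pretumor differed from GCP by -0.18 (SE 0.65, adjusted p = 0.986) and tumor from pretumor by -0.82 (SE 0.61, adjusted p = 0.692).

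Efnb3, an ephrin of the neural midline, touched the edge of the low band in pretumor samples. Its values were 8.24 to 9.97 in GCP, 9.36 to 20.5 in pretumor and 8.97 to 13.1 in tumor, so the groups overlapped, with pretumor 4 highest. The log2 difference of pretumor from GCP, 0.62 (SE 0.19), did not pass (adjusted p = 0.106), though it did without pretumor 3. The second probe set of Efnb3 read 3.61 to 4.92 on all arrays, with a difference of 0.06 in pretumor against GCP (adjusted p = 0.9). Efnb1 stayed between 3.68 and 4.50, and the ephrin-A ligands Efna1, Efna2, Efna3, Efna4 and Efna5 between 2.47 and 6.31. Efna3, the ephrin-A with the highest mean, gave 4.77 to 6.31 in GCP, 4.07 to 6.07 in pretumor and 4.46 to 6.17 in tumor. Of the receptors, the 7 EphA genes (Epha2 to Epha8) lay between 2.45 and 5.69. Epha8, the EphA receptor with the highest mean, gave 3.45 to 4.21 in GCP, 3.34 to 3.98 in pretumor and 3.08 to 5.69 in tumor, so the groups overlapped. Ephb3 and Ephb6 lay between 3.17 and 7.33, with Ephb6, a receptor without kinase activity, at 4.69 to 5.20 in GCP, 5.05 to 6.80 in pretumor and 5.00 to 7.33 in tumor. None of these 15 genes was called in any of the 3 comparisons, and the largest log2 difference among them was 0.27, for Ephb6. The second probe set of Ephb6 read 2.87 to 3.83 on all arrays, with a difference of -0.05 in pretumor against GCP. No change of an Eph receptor above the low band could be measured.

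Efnb2, Nrp1 and Sema7a parted tumor 3 from the other tumor arrays, and within pretumor they parted pretumor 3 the same way, with Efnb2 and Nrp1 highest and Sema7a lowest of the group. Marker lists of other cells also differed on tumor 3. The 19 meninges and fibroblast markers summed to 897 in tumor 3, against 392, 562, 177 and 296 in tumor 1, 2, 4 and 5. Their members Postn and Vtn were at 67.4 and 50.7 in tumor 3 and at no more than 4.88 and 24.3 in the other tumor arrays. Not every member was highest there. Ptgds read 22.7 in tumor 3, against 49.0, 37.0, 14.3 and 12.4 in tumor 1, 2, 4 and 5. The 17 microglia and macrophage markers summed to 2232 in tumor 3, against 765 to 1686 in the others, and to 1638 in pretumor 3, the highest of its group. Of these 17, 11 were in the low band on every array, and Ctss alone read 1099 in tumor 3. Csf1r went the other way, at 13.3 in tumor 3 and 13.6 to 22.0 in the other tumor arrays. The sum of the 5 choroid plexus and ependyma markers was also highest of its group in pretumor 3. It was 14525, against 5149 to 10330 in the other pretumor arrays, while tumor 3 gave 378. Ttr and Kl read highest of the group in pretumor 3, at 13951 and 533. Folr1, Foxj1 and Aqp1 were instead highest in pretumor 1, with Folr1 at 76.0 there and 33.2 in pretumor 3. The 18 endothelium and pericyte markers summed to 109 in tumor 3, against 76.9 to 99.7 in the other tumor arrays, 107 to 143 in pretumor and 162 to 199.9 in GCP. Of this list Cdh5 and Kdr were in the low band on every array of the series and Tie1 on every tumor array, whereas Emcn read 17.7 in tumor 3, 17.2 in tumor 2 and 8.26 to 14.5 in the other tumor arrays. Not every list ranked pretumor 3 as it ranked tumor 3. The meninges and fibroblast sum was 899 in pretumor 3, against 707 to 915 in the other pretumor arrays. The endothelium and pericyte sum of pretumor 3 was neither highest nor lowest of its group. The 12 granule cell precursor markers summed highest of the pretumor arrays in pretumor 3, at 17369. In tumor 3 that sum was the lowest of the tumor arrays, at 12541. The part of any of these cells in the values of tumor 3 and pretumor 3 was not tested.

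**Figure D4:**
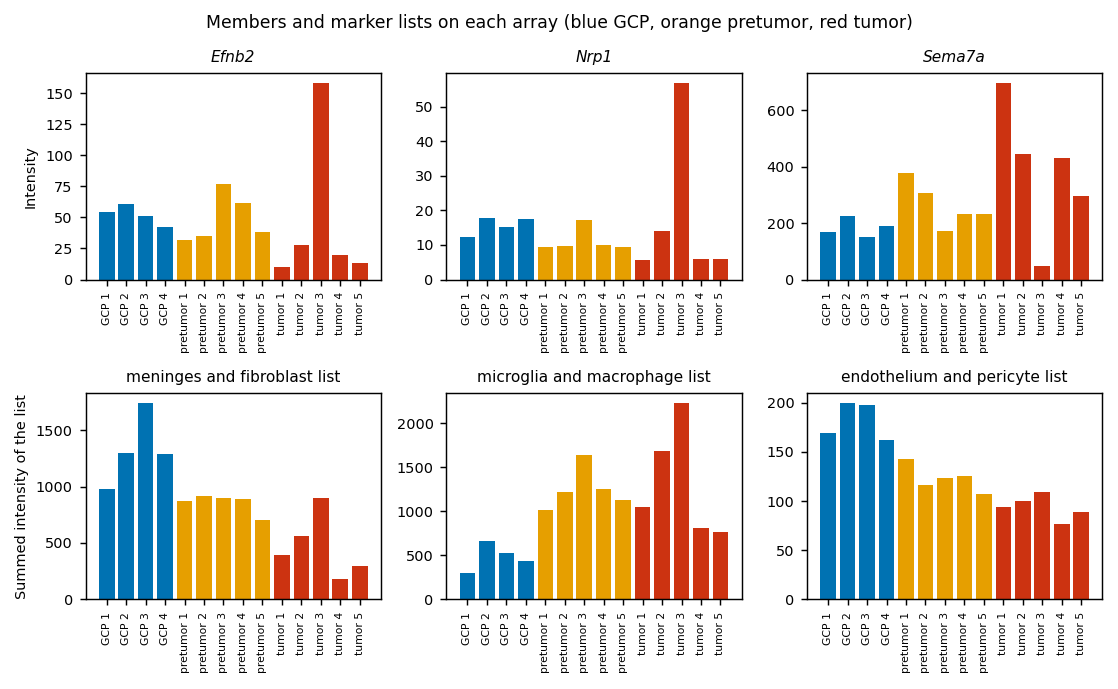
Intensity of Efnb2, Nrp1 and Sema7a (upper row) and summed intensity of 3 marker lists (lower row) on each of the 14 arrays, as bars from 0 coloured by stage. Tumor 3 is the highest array for Efnb2 (158) and Nrp1 (56.8), the lowest for Sema7a (49.1), and the highest tumor array for all 3 lists.

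Unc50 matches the name pattern of the rule but encodes a Golgi and nuclear membrane protein, not a netrin receptor. It was read at 630, 692, 682 and 788 in GCP, 536, 508, 544, 564 and 424 in pretumor and 593, 662, 501, 542 and 457 in tumor. All pretumor arrays lay below all GCP arrays, and Unc50 fell 1.36-fold (log2 difference -0.44, SE 0.11, adjusted p = 0.0499). That call ended in 16 of 24 alternatives (adjusted p of 0.00661 to 0.26 over all of them), among them without any 1 of the 4 GCP arrays, the 5 pretumor arrays, tumor 1, tumor 3 or tumor 4. Without Unc50 the call count in pretumor against GCP rests on Unc5c.

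Genes that act beside or downstream of these receptors were taken from a list of 84 adhesion, cytoskeletal and signalling genes, of which 58 were measured. In pretumor against GCP 2 rose and 3 fell (8.62% called, against 4.36% of all probe sets), and in tumor against GCP 2 rose and 3 fell (8.62%, against 4.6%). Of all single-symbol genes, counted by 1 probe set a gene like the list, 5.24% and 5.62% were called. Of those with a group mean at 16 it was 8.95% and 10.3%, and 28 of the 58 listed genes had such a mean. In tumor against pretumor limma called 0, where 8 (13.8%, against 11.3% of all probe sets and 12.2% of single-symbol genes) had an unadjusted p under 0.05. The median log2 differences of the list were -0.06, -0.04 and 0.03. On all arrays 30 of the 58 were in the low band.

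Of the 4 measured collapsin response mediators, cytosolic proteins that carry semaphorin signals to microtubules, Crmp1 rose at both later stages and Dpysl4 in tumor. Crmp1 rose 1.82-fold in pretumor and 1.78-fold in tumor against GCP, from 8.93 ± 0.23 to 9.79 ± 0.16 and 9.76 ± 0.27 on the log2 scale (adjusted p = 0.006 and 0.00672). No later array overlapped with GCP, where GCP 3 and GCP 4 (430 and 421) lay below GCP 1 and GCP 2 (562 and 558). With these array pairs averaged both calls ended (adjusted p = 0.0612 and 0.0641). Dpysl4 rose 2.46-fold in tumor against GCP, from 5.19 ± 0.17 to 6.49 ± 0.45 (adjusted p = 0.012), and was at 5.39 ± 0.45 in pretumor (adjusted p = 0.85 against GCP). Its tumor arrays gave 86.9, 88.1, 87.8, 61.0 and 145, all above the highest pretumor array at 56.9, and the difference of tumor from pretumor, 1.11 (SE 0.24), did not pass (adjusted p = 0.0548). It passed in 4 of 24 alternatives, namely without tumor 4 (adjusted p = 0.0452), with the filter on mean intensity (0.0176), a trended and robust variance (0.0389) and the replicate block (0.0321), and the call against GCP ended with the GCP pairs averaged (adjusted p = 0.12). Dpysl2 and Dpysl3 were in the low band on all arrays and not called, with Dpysl2 at -0.06 and 0.02 and Dpysl3 at -0.64 and -0.60 in pretumor and tumor against GCP on the log2 scale.

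Cntn1, a contactin on axon surfaces, gave 80.4, 98.8, 180.1 and 159.7 in GCP, 17.0 to 80.2 in pretumor and 10.7 to 32.8 in tumor, so that both later stages lay below GCP and overlapped with each other. It fell 3.52-fold in pretumor (adjusted p = 0.0381) and 5.77-fold in tumor (adjusted p = 0.00627), from 6.94 ± 0.55 to 5.13 ± 0.80 and 4.41 ± 0.64. Its call in pretumor ended without any 1 of GCP 2, GCP 3, GCP 4, pretumor 1, 2, 4 and 5 or tumor 4 (adjusted p of 0.00266 to 0.234 over 24 alternatives). That call also ended with the GCP pairs averaged (0.234), a floor at 16 (0.0582) and the compared groups alone (0.0611). Its call in tumor ended with the GCP pairs averaged (adjusted p = 0.0666).

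The growth cone protein Gap43 read 4183 to 5203 in GCP, 1439 to 2535 in pretumor and 1607 to 4054 in tumor, with tumor 3 highest among the later arrays and no overlap with GCP. It fell 2.27-fold in pretumor against GCP, from 12.14 ± 0.14 to 10.96 ± 0.39 (adjusted p = 0.03), and was at 11.23 ± 0.57 in tumor (adjusted p = 0.0913 against GCP). The first call ended without any 1 of the 4 GCP arrays or pretumor 1, 2 or 5. It also ended with the GCP pairs averaged (adjusted p = 0.228) and with a floor at 16 (0.0721). Without tumor 3 the difference of tumor from GCP passed (adjusted p = 0.0218). The adhesion molecule Ncam1 read 2340 to 3065 in GCP, 4146 to 5167 in pretumor, with no overlap, and 1970 to 4281 in tumor. It rose 1.79-fold in pretumor, from 11.37 ± 0.19 to 12.21 ± 0.12 (adjusted p = 0.0234). Its call was lost on leaving out any 1 of GCP 2, GCP 3, GCP 4, pretumor 1 or pretumor 4. That call was also lost with the GCP pairs averaged (adjusted p = 0.159) and with a floor at 16 (0.0564). In tumor Ncam1 was at 11.66 ± 0.43 (adjusted p = 0.537 against GCP), and without tumor 2 that difference passed (adjusted p = 0.0329). Ablim1, an actin-binding protein, lay in the low band on all arrays, at 3.84 to 4.38 in GCP, 3.01 to 4.56 in pretumor and 2.68 to 3.32 in tumor. Its call in tumor against GCP (adjusted p = 0.0252) ended in 9 of 23 alternatives, among them without any 1 of GCP 2, 3 and 4 and tumor 1, 4 and 5, and with a floor at 16 the difference was 0, so no size is given.

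**Figure D5:**
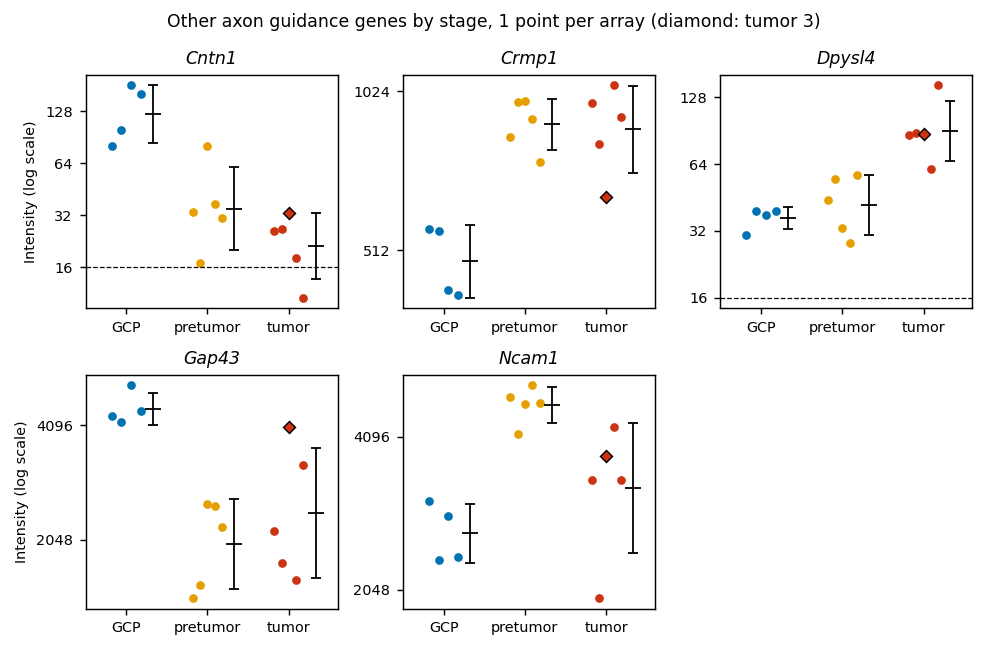
Intensity (vertical log axis) by stage of the 5 other axon guidance genes described above the low band, 1 point per array, with the mean ± SD of log2 intensity and tumor 3 as a diamond. Cntn1 is lower and Crmp1 higher at both later stages than in GCP, and Dpysl4 is higher in tumor.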

How the data were processed

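RNA of 14 samples was measured on 1 expression array each. The deposited table holds, per the values themselves, 1 linear intensity per probe set and array, made by the authors. Their summary and normalisation are not given in the sources used here. Without the 66 control probe sets, values under 2.45 (percentile 10 of the table) were raised to it, and log2 was taken with no further normalisation. 3 group means were fitted to each of 12422 probe sets with limma 3.58.1 in R 4.3.3 (11 residual and 0.83 prior degrees of freedom). P-values were two-sided and adjusted over all probe sets. No label says that replicates are different animals, so a p-value reflects only how these samples vary, and that variation may be technical. For arrays, their number limits the precision.

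A fold is the ratio of geometric group means. Where 1 mean lay below 16 it is set against 16 ("at least"), and where both did, none is given. Full values went to called members, to members apart by at least 1 on the log2 scale without overlap, and to the highest member of each family, with group ranges only for those in the low band throughout. Members with a group mean of 16 were named too, and so were called genes of the pathway list, except 1 that is not reported here. Efnb3, Sema3a, Sema3f and other low-band genes were chosen as examples after their values were seen. Symbols came from the array annotation, and RefSeq (GRCm38.p6) held all 45. Members, families, lists and the limit of 16 were chosen with earlier results of these data known. The fit was tested on simulated data. Alternatives were another floor, a pseudocount of 16, quantile normalisation, a filter, another variance model, array weights, fewer groups, a replicate block, averaged GCP pairs and arrays left out.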

Additional observations from a re-analysis of the deposited data

Results flagged for a closer look

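With Dixon's test at the 95% level on log2 values, 57 groups of 4 or 5 arrays were examined for the 19 genes given with group values, and 3 stood out; chance flags about 1 group in 20. Robo1 read 25.1 in pretumor 5, where the next pretumor array read 14.6. Ntn1 read 17.5 in the same array, where the next pretumor array read 19.5. Nrp1 read 17.3 in pretumor 3, where the next pretumor array read 9.91. The tumor 3 values of Efnb2, Nrp1 and Sema7a did not stand out by this test.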

How the results depend on the processing

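The Unc5c calls against GCP kept their direction and side of the threshold wherever the gene was tested. A filter on the mean over all arrays removed the gene, whose mean over the 14 arrays lies below 16. Of 12 called differences of named genes, the 2 of Unc5c held in all alternatives, and 9 of 33 uncalled ones passed in at least 1.

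In pretumor against GCP the 2 called members became 1 with a floor at 16, the filter, a trended and robust variance, the replicate block or averaged GCP pairs, 4 without pretumor 3 and tumor 2, and 8 with array weights (Unc5c, Unc50, Sema3e, Sema4d, Plxna2, Epha7, Ephb6 and Efnb3); with any 1 array left out there were 1 to 2. Called probe sets, 541, became 194 with the floor at 16, 1508 with array weights and 168 with averaged GCP pairs (331 to 624 with 1 array left out). In tumor against GCP the 2 became 1 with the floor or averaged GCP pairs and 0 with the filter (2 to 4), and 571 probe sets became 232 with the floor, 998 with array weights, 198 with averaged GCP pairs and 335 with the compared groups alone (338 to 709). In tumor against pretumor the 0 became 1 (Sema3e) with array weights, and the 124 probe sets became 32 with the floor, 393 with array weights, 50 with the compared groups alone, 76 with the replicate block and 69 with averaged GCP pairs (70 to 148). Array weights ran from 0.229 for pretumor 3 to 3.55 for pretumor 2.

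Some uncalled differences turned sign. Nrp1 in tumor against GCP went from -0.49 to 0.30 with the floor at 16. In tumor against pretumor Unc5c was 0.011, Nrp1 -0.14 and Crmp1 0.0066 with array weights, and Sema7a was -0.12 and Crmp1 0.029 without pretumor 3 and tumor 2. With 1 array left out they ran from -0.15 to 0.10 for Plxnb2, -0.14 to 0.81 for Sema7a, -0.56 to 0.28 for Nrp1 and -0.10 to 0.075 for Crmp1. The cause of these changes was not tested.

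Of 13 pairs of samples with the same replicate number, 4 had deviations correlated above 0.1 (range -0.32 to 0.51). In GCP with pretumor the pairs numbered 1 to 4 gave 0.38, 0.28, 0.51 and -0.27, so not every pair deviated together and the numbers were not taken as a pairing. Under the replicate block 1 member was called in pretumor against GCP, 2 in tumor against GCP and 0 in tumor against pretumor. The block ended the calls of Unc50 (adjusted p = 0.0695) and Cntn1 (0.0505) in pretumor and of Ablim1 (0.0565) in tumor against GCP.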
